A study of Oryza sativa with 6 samples.

Results

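Late embryogenesis abundant (LEA) proteins, dehydrins and cold-regulated proteins are described here in rice panicles after 1 day of cold. The 57 members, of 39367 genes in the deposited table, were chosen by words in the deposited gene names and descriptions (late embryogenesis, dehydrin, LEA protein, LEA14, cold-regulated, cold acclimation, low-temperature induced, water stress inducible and COR413). The choice used words and no measured value, though it was made with earlier results of these data known. RNA was sequenced from 3 panicle libraries of CTB3-cr1, a line whose labels call it a CTB3 knockdown while the library names call it KO, and from 3 panicle libraries of the wild-type cultivar Nipponbare. All 6 came from plants under a cold treatment that the series abbreviates CS-PT, and the labels name the samples of each genotype biological replicates. The number of panicles or plants behind a library was not stated, nor how the line was made. CTB3-cr1 was the only CTB3 line analysed here, so an effect of CTB3 and any other difference between these lines cannot be told apart. No source used here pairs CTB3 with a gene identifier, and the level of the targeted gene was not analysed here. Panicles kept warm were not analysed here, so the values are levels in the cold and differences between genotypes, not responses to cold.

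LEA proteins are small, very hydrophilic proteins that accumulate in maturing seeds as they dry and, in many plants, in vegetative tissue under drought, salt or cold. Dehydrins are the LEA family with lysine-rich repeats that bind membranes and other proteins when water is withdrawn, as happens in drying and freezing. Other cold-regulated genes code for membrane proteins, among them the small hydrophobic LTI6 (RCI2) proteins and the COR413 proteins. Many of these genes are switched on by abscisic acid through bZIP transcription factors, or by cold through the DREB1 (CBF) factors.

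Libraries held between 14422565 and 16982031 counts, and between 46 and 50 of the 57 members had at least 1 count in a library. The floral factors that mark a panicle were present: the summed level of the 5 MADS-box markers was 588 to 618 FPKM (fragments scaled to gene length and library size) in CTB3-cr1 and 542 to 728 FPKM in Nipponbare. Of 8 anther markers, mostly genes of the tapetum (the anther layer that feeds pollen), 5 were lower in every CTB3-cr1 library than in every Nipponbare library (5.36% of all genes tested), and none was at 0. The other 3, TAPETUM DEGENERATION RETARDATION (Os02g0120500), UNDEVELOPED TAPETUM 1 (Os07g0549600) and MULTIPLE SPOROCYTE 1 (Os01g0917500), overlapped between genotypes, with log2 fold changes of -0.21, -0.07 and 0.04, the last turning negative without CTB3-cr1 replicate 3 (-0.17) or Nipponbare replicate 3 (-0.13). In edgeR 0 of the 8 were called (0.078% of all genes tested) and 5 had an unadjusted p under 0.05 (5.25%). The authors' deposited table calls 4 of the 8 (0.621% of the genes it tests), with a lowest adjusted p of 1.06e-05. The summed level of all 8 was 648 to 828 FPKM in CTB3-cr1 and 1047 to 1546 FPKM in Nipponbare. The largest share in every library was that of the polyketide synthase gene Os10g0484800 (389 ± 82.1 FPKM in CTB3-cr1 and 774 ± 141 FPKM in Nipponbare, SD, n = 3 each). The part of these markers in the results below was not tested. In bulk tissue, fewer cells of a type and less RNA per cell cannot be told apart. RAFTIN1 (Os08g0496800), an anther protein gene, had a log2 fold change of -2.06 ± 0.38 (SE) in edgeR's quasi-likelihood test, with an adjusted p of 0.304.

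No member differed between the genotypes past an adjusted p of 0.05. Of the 34 members with enough counts to be tested, 0 were called in edgeR, where 0.078% of all 25636 genes tested were called, and the lowest adjusted p among members was 0.777. The authors' deposited table also calls 0 members, against 0.621% of the genes it tests, with a lowest adjusted p of 0.299. At an unadjusted p under 0.05 there were 3 members in edgeR, or 8.82%, beside 5.25% of all genes. DESeq2, which the submitters' notes also name, called 0 members when rerun on the same counts, a repeat rather than separate evidence. It had 4 of 53 members at an unadjusted p under 0.05, beside 5.06% of all genes it fitted. Among the 34, 21 log2 fold changes (CTB3-cr1 over Nipponbare) were positive and 13 negative, with 49.5% positive over all genes. Their median was 0.07 and that of all genes tested was 0.00.

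Levels differed far more between members than between genotypes. In FPKM, which allows for gene length, 14 members averaged 10 or more over the 6 libraries, 17 between 1 and 10, and 22 less than 1, while 4 had no count. The 4 most abundant took 60.8% of the summed mean FPKM of all members and the 8 most abundant 85.2%. The median level was 5.07 FPKM over the tested members and 9.55 FPKM over all genes tested.

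**Figure D1:**
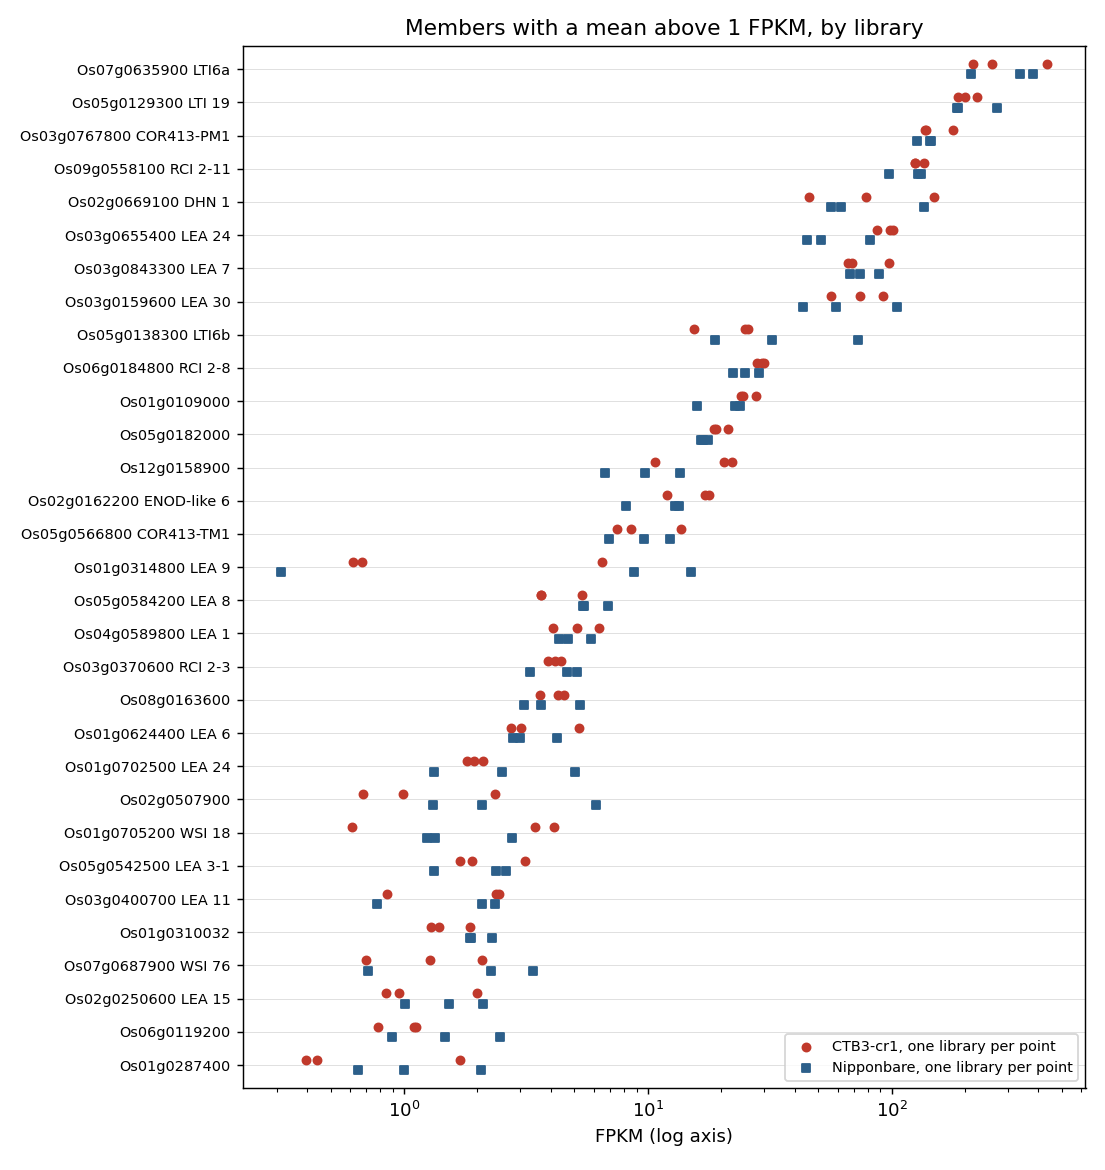
FPKM of each of the 31 members with a mean above 1 FPKM, on a log axis, 1 point per library, with CTB3-cr1 as red circles and Nipponbare as blue squares. Members are ordered by mean level, and the points of the genotypes overlap for most of them.

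Among the dehydrins 1 gene carried nearly the whole signal. DEHYDRIN 1 (Os02g0669100, chromosome 2 from 27165514 to 27166898, minus strand) had 149, 45.7 and 78.2 FPKM in CTB3-cr1 and 62.2, 56.7 and 136 FPKM in Nipponbare. The groups overlapped fully, with CTB3-cr1 replicate 1 and Nipponbare replicate 3 high and the other 4 libraries lower. edgeR put its log2 fold change at 0.10 ± 0.48 (SE), adjusted p = 0.996, with an approximate 95% interval from -1.03 to 1.23, so a doubling in either direction lies within the interval. The log2 fold change became -0.45 when CTB3-cr1 replicate 1 was left out and 0.63 when Nipponbare replicate 3 was. LATE EMBRYOGENESIS ABUNDANT PROTEIN 6 (Os01g0624400), similar to a dehydrin, had 5.22, 3.03 and 2.75 FPKM in CTB3-cr1 and 4.24, 3.00 and 2.79 FPKM in Nipponbare, close to one another apart from the first library of each genotype. The Rab25-type dehydrin Os01g0702500 had 1.94, 2.10 and 1.82 FPKM in CTB3-cr1 and 1.32, 5.05 and 2.53 FPKM in Nipponbare, where replicate 2 stood highest. Positions are taken from the deposited table, and its genome build was not given in the sources used here.

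Dehydrins of the RAB16 type, known for strong induction by abscisic acid, lie close together on chromosome 11. The members with RAB16 names, 16C and 16D, fell below the filter on low counts, while 16A, outside the members, passed it at a low level. RESPONSIVE TO ABA GENE 16C (Os11g0454000, spanning 15327769 to 15328657) yielded 4, 5 and 3 counts in CTB3-cr1 and 2, 1 and 2 counts in Nipponbare, and its neighbour 16D (Os11g0453900), separated from it by 6242 bases, had 0 counts in all 6 libraries. A count of 0 allows up to 3 counts of the 95161948 counted, or 0.0315 CPM (counts scaled to library size). DEHYDRIN 6 (Os11g0451700), on the same stretch, had 8 counts over CTB3-cr1 and 9 over Nipponbare. RESPONSIVE TO ABA GENE 16A (Os11g0454300) is a RAB16 gene of the same chromosome that the search words miss. Named after its values were seen, it had 1.90, 1.82 and 2.11 FPKM in CTB3-cr1 and 0.975, 2.21 and 2.64 FPKM in Nipponbare. The fourth dehydrin below the filter on low counts, Os01g0225600, had no count.

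The small hydrophobic LTI6 (RCI2) proteins, membrane proteins of a family whose yeast relative affects membrane potential and ion uptake, were the most abundant group. LTI6a (Os07g0635900, chromosome 7 from 26403675 to 26404722) had the highest mean level of all members. It had 216, 435 and 259 FPKM in CTB3-cr1 and 380, 338 and 211 FPKM in Nipponbare. Here the order of libraries was close to the reverse of that of DEHYDRIN 1: CTB3-cr1 replicate 1 and Nipponbare replicate 3 were the lowest of the 6. In edgeR its log2 fold change was -0.03 ± 0.31 (SE), adjusted p = 0.996. The paralogue RCI2-11 (Os09g0558100) was much steadier, with 124.5, 136 and 124.3 FPKM in CTB3-cr1 and 131, 128 and 97.7 FPKM in Nipponbare, and a log2 fold change of 0.10 ± 0.14 (SE). RCI2-8 (Os06g0184800) had 28.1 to 29.9 FPKM in CTB3-cr1 and 22.3 to 28.6 FPKM in Nipponbare.

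LTI6b (Os05g0138300, chromosome 5 from 2219581 to 2220618) had 25.7, 25.1 and 15.5 FPKM in CTB3-cr1 and 18.9, 32.3 and 73.1 FPKM in Nipponbare. A single library, Nipponbare replicate 3, stood far above the other 5, and the remaining values overlapped. The log2 fold change of -0.91 ± 0.47 (SE) did not pass in edgeR (adjusted p = 0.976), and it was -0.20 without that library. The authors' deposited table gives LTI6b an unadjusted p of 0.0411 and an adjusted p of 0.796. The remaining LTI6-type genes were weak: RCI2-3 (Os03g0370600) had 3.91 to 4.41 FPKM in CTB3-cr1 and 3.30 to 5.14 FPKM in Nipponbare. Os01g0287400 and Os05g0122700 fell below the filter, with 24 and 0 counts over CTB3-cr1 against 33 and 1 over Nipponbare. Members of this family are similar to one another, so reads could be shared between them, and the counting rule was not given in the sources used here.

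Both COR413 genes were expressed and neither passed the test. The plasma membrane member COR413-PM1 (Os03g0767800) had 136.5, 178 and 139 FPKM in CTB3-cr1 and 145, 127 and 144 FPKM in Nipponbare. This gave 0.12 ± 0.14 (SE) on the log2 scale in edgeR (adjusted p = 0.996). Its approximate 95% interval ran from -0.21 to 0.46, short of a 2-fold difference in either direction. The member named after the thylakoid, COR413-TM1 (Os05g0566800), had 13.7, 7.49 and 8.56 FPKM in CTB3-cr1 and 9.69, 6.95 and 12.4 FPKM in Nipponbare, with CTB3-cr1 replicate 1 and Nipponbare replicate 3 again the highest. 

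Among LEA proteins of the LEA 2 and LEA-14 type, an atypical and more hydrophobic branch of the family, LATE EMBRYOGENESIS ABUNDANT PROTEIN 7 (Os03g0843300) was the most abundant. It had 97.9, 66.0 and 69.0 FPKM in CTB3-cr1 and 67.4, 74.5 and 89.1 FPKM in Nipponbare, with a log2 fold change of 0.01 ± 0.19 (SE). Os12g0158900, with a LEA-14 domain (chromosome 12 from 2947866 to 2948580), had 22.2, 10.75 and 20.6 FPKM in CTB3-cr1 and 13.5, 6.65 and 9.71 FPKM in Nipponbare. CTB3-cr1 replicates 1 and 3 were above all Nipponbare libraries, while CTB3-cr1 replicate 2 lay among them. Its log2 fold change of 0.84 ± 0.35 (SE) had an unadjusted p of 0.0475 and an adjusted p of 0.940 in edgeR, and the values without single libraries ran from 0.62 to 1.12. Os02g0507900 had a log2 fold change of -1.23 ± 0.70 (SE), and Os06g0119200 one of -0.69 ± 0.48 (SE). In both, Nipponbare replicate 2 was the highest of the 6, while for Os12g0158900 it was the lowest. Os02g0507900 had 0.680, 2.37 and 0.993 FPKM in CTB3-cr1 and 2.08, 6.13 and 1.32 FPKM in Nipponbare. Os08g0163600, with 0.05 ± 0.27 (SE), lies wholly within a gene on the opposite strand, and without a stated strand setting its reads cannot be told apart from those of that gene.

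**Figure D2:**
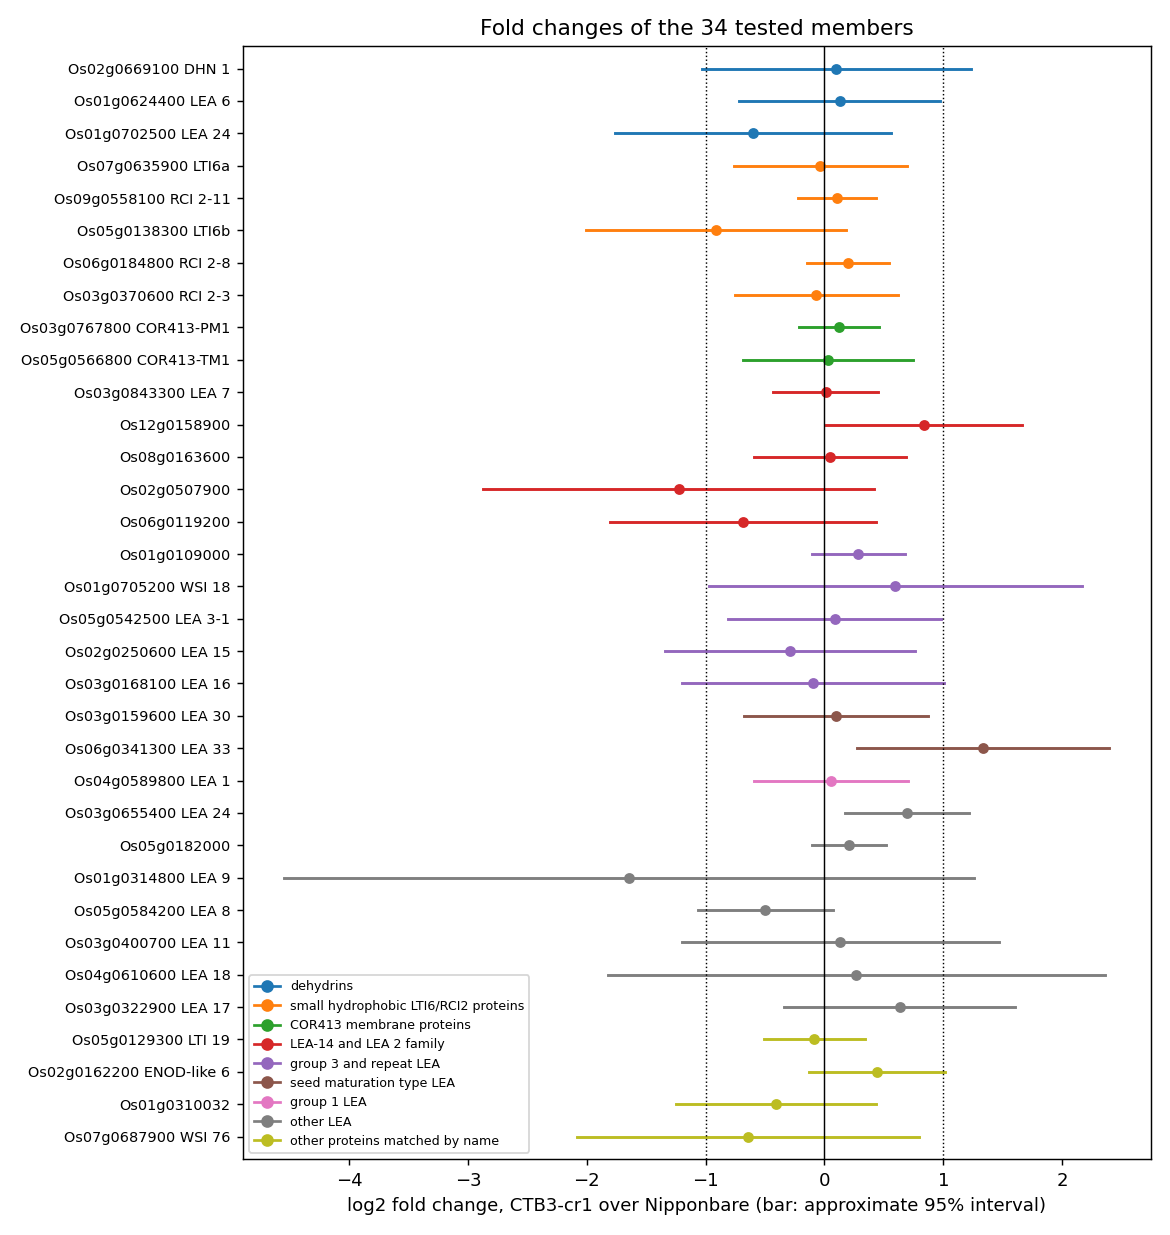
Log2 fold change of CTB3-cr1 over Nipponbare for the 34 tested members, with approximate 95% intervals from edgeR's quasi-likelihood fit, coloured by type of protein. Dotted lines mark -1 and 1 on the log2 scale; 31 of the 34 intervals span 0, and 15 lie wholly between the dotted lines.

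The lowest unadjusted p in edgeR among tested members belonged to LATE EMBRYOGENESIS ABUNDANT PROTEIN 24 (Os03g0655400), described as similar to LIP5, on chromosome 3 from 25563660 to 25564431. The table gives this same name to Os01g0702500 above. Os03g0655400 had 102, 86.85 and 98.6 FPKM in CTB3-cr1 and 81.2, 51.2 and 45.0 FPKM in Nipponbare. All 3 CTB3-cr1 libraries were above all 3 Nipponbare libraries, although CTB3-cr1 replicate 2 and Nipponbare replicate 1 lay close together. The log2 fold change was 0.69 ± 0.22 (SE), with an approximate 95% interval from 0.17 to 1.21, an unadjusted p of 0.0158 and an adjusted p of 0.777 in edgeR. The authors' deposited table gives an adjusted p of 0.299. The log2 fold change ran from 0.54 without Nipponbare replicate 3 to 0.99 without Nipponbare replicate 1, and it was not called in either.

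In CPM the genotypes were fully separated in 6 of the 34 tested members, or 17.6%, beside 10.5% of all genes tested. In 4 of them CTB3-cr1 was higher (5.11% of all genes) and in 2 lower (5.36% of all genes). Besides Os03g0655400, the higher ones were LATE EMBRYOGENESIS ABUNDANT PROTEIN 33 (Os06g0341300), Os01g0109000 and Os05g0182000. Os06g0341300 has the domain of seed maturation proteins, which accumulate as seeds dry. It had 20, 18 and 42 counts in CTB3-cr1 and 9, 7 and 14 counts in Nipponbare. Its log2 fold change of 1.34 ± 0.45 (SE) was the largest positive one among tested members, with an unadjusted p of 0.0201 and an adjusted p of 0.804 in edgeR. CTB3-cr1 replicate 3 was the highest library by a wide margin, and without it the log2 fold change was 0.92.

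The group 3 gene Os01g0109000, one of the LEA proteins built of short repeats, had 27.7, 24.7 and 24.1 FPKM in CTB3-cr1 and 23.98, 15.98 and 22.7 FPKM in Nipponbare. The groups were separated by less than the spread within either one. Os05g0182000, similar to a LEA protein, had 19.1, 21.3 and 18.8 FPKM in CTB3-cr1 and 17.7, 16.85 and 16.5 FPKM in Nipponbare. On the log2 scale the differences were 0.28 ± 0.17 (SE) and 0.21 ± 0.13 (SE), and neither reached an unadjusted p of 0.05. The pair on the lower side were LATE EMBRYOGENESIS ABUNDANT PROTEIN 8 (Os05g0584200) and Os01g0310032, which is similar to a cold-regulated protein. Os05g0584200, described in the table as an atypical LEA protein of abiotic stress resistance, had 3.64, 5.36 and 3.63 FPKM in CTB3-cr1 and 5.47, 6.88 and 5.45 FPKM in Nipponbare, or -0.50 ± 0.24 (SE) on the log2 scale (edgeR adjusted p = 0.969). Os01g0310032 had 1.295, 1.868 and 1.397 FPKM in CTB3-cr1 and 2.287, 1.869 and 1.890 FPKM in Nipponbare, so that the nearest libraries of the genotypes were almost level.

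Other LEA genes of the seed and drought type were expressed without a consistent order of the genotypes. LATE EMBRYOGENESIS ABUNDANT PROTEIN 30 (Os03g0159600), similar to the abscisic acid-responsive Rab28 of maize, had 56.5, 92.2 and 74.4 FPKM in CTB3-cr1 and 105, 59.3 and 43.3 FPKM in Nipponbare. WATER STRESS INDUCIBLE PROTEIN 18 (Os01g0705200), a LEA repeat protein, had 4.13, 0.611 and 3.43 FPKM in CTB3-cr1 and 1.25, 1.34 and 2.78 FPKM in Nipponbare. LEA 3-1 (Os05g0542500), a group 3 LEA gene, had 1.70, 3.13 and 1.89 FPKM in CTB3-cr1 and 2.61, 2.39 and 1.33 FPKM in Nipponbare. The group 1 gene LATE EMBRYOGENESIS ABUNDANT PROTEIN 1 (Os04g0589800) had 4.08 to 6.32 FPKM in CTB3-cr1 and 4.34 to 5.84 FPKM in Nipponbare. The other 3 group 1 genes had between 0 and 4 counts over all 6 libraries.

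LATE EMBRYOGENESIS ABUNDANT PROTEIN 9 (Os01g0314800, chromosome 1 from 11863682 to 11864412), of the LEA 3 family, was the most variable member. It had 61, 6 and 7 counts in CTB3-cr1 and 3, 74 and 155 counts in Nipponbare, so each genotype held both high and low libraries. Its log2 fold change of -1.64 ± 1.24 (SE) was the most negative one and rested on single libraries, with -0.79 without Nipponbare replicate 3 and -3.62 without CTB3-cr1 replicate 1. Within a genotype its level varied 48.0-fold. LATE EMBRYOGENESIS ABUNDANT PROTEIN 18 (Os04g0610600), similar to a Cor14b precursor, followed with 27.9-fold, on 1 to 31 counts a library.

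**Figure D3:**
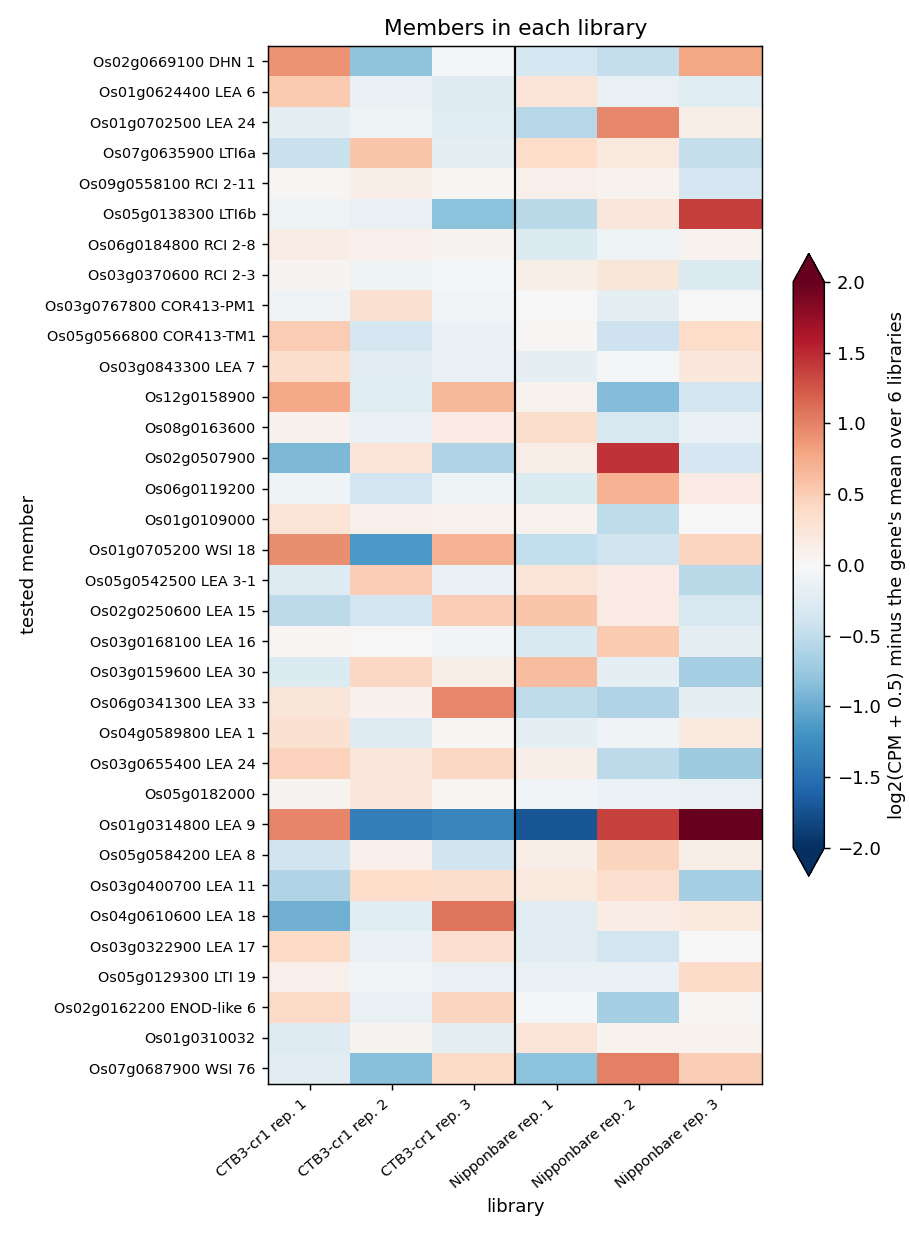
Level of each of the 34 tested members in each library, as log2(CPM + 0.5) minus the gene's mean over the 6 libraries, with CTB3-cr1 left and Nipponbare right of the black line and the colour scale ending at -2 and 2. Strong colours fall within both genotypes, as in the row of Os01g0314800, rather than on one side of the line.

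Variation within a genotype was wider than 2-fold in 15 of the 34 tested members, or 44.1%, beside 27.5% of all genes tested. The median ratio of highest to lowest library within a genotype, taking the wider genotype, was 1.93 among tested members and 1.54 among all genes. CTB3-cr1 replicate 1 was the highest library for 11 members, more than any other, and Nipponbare replicates 2 and 3 were each the lowest for 8. The same counts were not made over all genes tested, so whether they are particular to members cannot be told. Some abundant members were among the 15: the ratio was 3.29 for DEHYDRIN 1, 3.86 for LTI6b and 2.43 for Os03g0159600. The 4 most abundant members were not, with 1.999 for LTI6a, 1.45 for Os05g0129300, 1.30 for COR413-PM1 and 1.35 for RCI2-11. An approximate 95% interval within -1 to 1 on the log2 scale was obtained for 15 of the 34, or 44.1%, beside 69.3% of all genes. These included LTI6a, COR413-PM1, RCI2-11 and Os03g0843300. For the other 19, among them DEHYDRIN 1, LTI6b and Os06g0341300, a 2-fold difference lies within the interval. Tested members had a lower median level than all genes tested, 5.07 against 9.55 FPKM. The part of level in the shares for spread and intervals was not tested.

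Some members matched the search words through a name or description while the table gives them another kind of protein or domain. LOW-TEMPERATURE-INDUCED PROTEIN 19 (Os05g0129300) is a basic/leucine zipper protein, the class of transcription factors that bind DNA as dimers. It had 223, 199 and 187 FPKM in CTB3-cr1 and 186, 188 and 271 FPKM in Nipponbare, with the same 2 libraries highest as for DEHYDRIN 1, and a log2 fold change of -0.08 ± 0.18 (SE). WATER STRESS INDUCIBLE PROTEIN 76 (Os07g0687900) carries a glycosyltransferase domain and had 1.27, 0.700 and 2.09 FPKM in CTB3-cr1 and 0.714, 3.38 and 2.28 FPKM in Nipponbare. EARLY NODULIN LIKE PROTEIN 6 (Os02g0162200), matched through its description and with a copper-binding-like domain, had 17.2, 11.99 and 17.8 FPKM in CTB3-cr1 and 12.95, 8.17 and 13.5 FPKM in Nipponbare.

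The 23 members below the filter on low counts had between 0 and 60 counts summed over the 6 libraries. Of these, 4 had no count, 8 had 1 to 10 and 11 had more. The highest were Os04g0628300 with 29 counts in CTB3-cr1 and 29 in Nipponbare, Os01g0276300 with 32 and 28, Os01g0287400 given above, and Os06g0119900 with 20 and 26, CTB3-cr1 first in each. Those without a count were 16D, the dehydrin Os01g0225600, the group 1 gene Os08g0327700 and the LEA-18 gene Os09g0482550. The seed maturation protein gene Os03g0747500, next to Os03g0747400, had 6 counts over CTB3-cr1 and 13 over Nipponbare, and the LEA-5 gene Os05g0362600 had 7 and 5. The LEA-18 genes Os09g0482300 and Os09g0482550 lie 9291 bases apart with the same gene length, so reads could be split between them, and had 3 and 0 counts in all. Fitted with no filter, 19 of the 23 gave a value, and 0 were called in edgeR, on log2(FPKM + 1) or among the 7 to which DESeq2 gave an adjusted p. On log2(FPKM + 1) with no filter, 3 of the 19 had an unadjusted p under 0.05, beside 5.53% of all genes fitted, while edgeR with no filter and DESeq2 had 0. These 3 were also the members below the filter whose genotypes did not overlap in FPKM, as in 8.12% of all genes below the filter with a count. Os03g0747400 and Os05g0468800, named as a cold-regulated protein and carrying a phosphatidylethanolamine-binding domain, each had 0, 0 and 1 counts in CTB3-cr1 and 3, 2 and 3 counts in Nipponbare. On log2(FPKM + 1) with no filter in limma the adjusted p was 0.630 for Os03g0747400 and 0.588 for Os05g0468800, and in edgeR with no filter it was 0.927 for both. RAB16C, given above, was the one higher in CTB3-cr1, with an adjusted p of 0.840 in limma and 0.927 in edgeR.

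Regulators of LEA and cold-regulated genes were measured beside them. Of 11 listed, 6 were tested and 0 were called in edgeR (0.078% of all genes tested), with 2 at an unadjusted p under 0.05 (5.25%), and the authors' deposited table calls 0. The abscisic acid-responsive factors bZIP23 (Os02g0766700) and bZIP46 (Os06g0211200), which activate stress genes in rice, were the 2, and they were also those whose groups did not overlap, with CTB3-cr1 higher (5.11% of all genes tested). bZIP46 had 30.5, 27.85 and 29.4 FPKM in CTB3-cr1 and 24.8, 21.1 and 22.6 FPKM in Nipponbare, and edgeR gave it 0.36 ± 0.11 (SE) on the log2 scale, with an unadjusted p of 0.0130 and an adjusted p of 0.751. bZIP23 had 23.5, 18.8 and 22.95 FPKM in CTB3-cr1 and 17.8, 17.5 and 15.9 FPKM in Nipponbare, or 0.35 ± 0.13 (SE) on the log2 scale (edgeR adjusted p = 0.856). TRAB1 (Os08g0472000), a further factor of this kind, had 0.01 ± 0.12 (SE), and DREB2A (Os01g0165000), a drought factor, -0.05 ± 0.13 (SE). ICE1 (Os11g0523700) and ICE2 (Os01g0928000), named after inducers of CBF expression, had 0.35 ± 0.25 (SE) and 0.37 ± 0.18 (SE). The median over the 6 was 0.35, beside 0.00 over all genes tested. DREB1A, DREB1B, DREB1C, VIVIPAROUS 1 and ABA INSENSITIVE 5, the last pair being seed regulators of abscisic acid response, fell below the filter. VIVIPAROUS 1 (Os01g0911700) had 3 counts over CTB3-cr1 and 0 over Nipponbare, and ABA INSENSITIVE 5 (Os01g0859300) 10 and 20.

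Genes of protective solutes and seed maturation formed a second comparison list, of which 15 of 24 were tested and 0 called in edgeR (3 at an unadjusted p under 0.05, beside 5.25% of all genes, and 0 called in the authors' deposited table), 7 with a positive and 8 with a negative log2 fold change and a median of -0.03. In CPM the genotypes were fully separated in 3 of the 15, beside 10.5% of all genes tested, with 2 higher in CTB3-cr1 and 1 lower. The higher ones were Os01g0691400 and Os05g0550250, both similar to seed maturation proteins. Os01g0691400 had 12.4, 9.72 and 12.6 FPKM in CTB3-cr1 and 8.90, 3.98 and 8.998 FPKM in Nipponbare, or 0.66 ± 0.32 (SE) on the log2 scale (edgeR adjusted p = 0.969), and 0.37 without Nipponbare replicate 2. Os05g0550250 had 2.88 to 3.88 FPKM in CTB3-cr1 and 2.15 to 2.72 FPKM in Nipponbare, or 0.35 ± 0.28 (SE) on the log2 scale, and 0.205 without CTB3-cr1 replicate 1. The lower one was the 16 kDa oleosin gene Os04g0546500, whose product coats oil bodies. It had 3.42, 2.07 and 1.14 FPKM in CTB3-cr1 and 4.23, 5.94 and 7.32 FPKM in Nipponbare. In edgeR its log2 fold change was -1.41 ± 0.43 (SE), adjusted p = 0.753. The most negative log2 fold change, -1.98 ± 0.60 (SE), was that of a locus on chromosome 10 from 15369568 to 15370671 with a seed maturation protein domain and no gene name, at an unadjusted p of 0.0124 and an adjusted p of 0.751 in edgeR; it was -1.20 without Nipponbare replicate 2. It had 2.49, 4.27 and 5.322 FPKM in CTB3-cr1 and 13.2, 29.3 and 5.337 FPKM in Nipponbare. Nipponbare replicate 3 was thus almost level with CTB3-cr1 replicate 3, and the groups overlapped in CPM though not in FPKM. The desiccation-related gene Os04g0404400 had 38.7, 66.3 and 32.8 FPKM in CTB3-cr1 and 122, 165 and 42.3 FPKM in Nipponbare, and the groups overlapped. Its unadjusted p was 0.0341 and its adjusted p 0.895 in edgeR. Proline synthesis is served by P5C synthetases. P5CS2 (Os01g0848200) had 7.71, 2.15 and 3.29 FPKM in CTB3-cr1 and 2.23, 4.33 and 13.55 FPKM in Nipponbare, with CTB3-cr1 replicate 1 and Nipponbare replicate 3 high as for DEHYDRIN 1. The more abundant Os05g0455500 had 38.3 to 49.0 FPKM in CTB3-cr1 and 35.3 to 43.4 FPKM in Nipponbare. ABSCISIC ACID-STRESS-RIPENING-INDUCIBLE 5 (Os11g0167800), a small hydrophilic stress protein, had 972, 740 and 752 FPKM in CTB3-cr1 and 603, 667.5 and 1071 FPKM in Nipponbare, with the same 2 libraries highest.

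**Figure D4:**
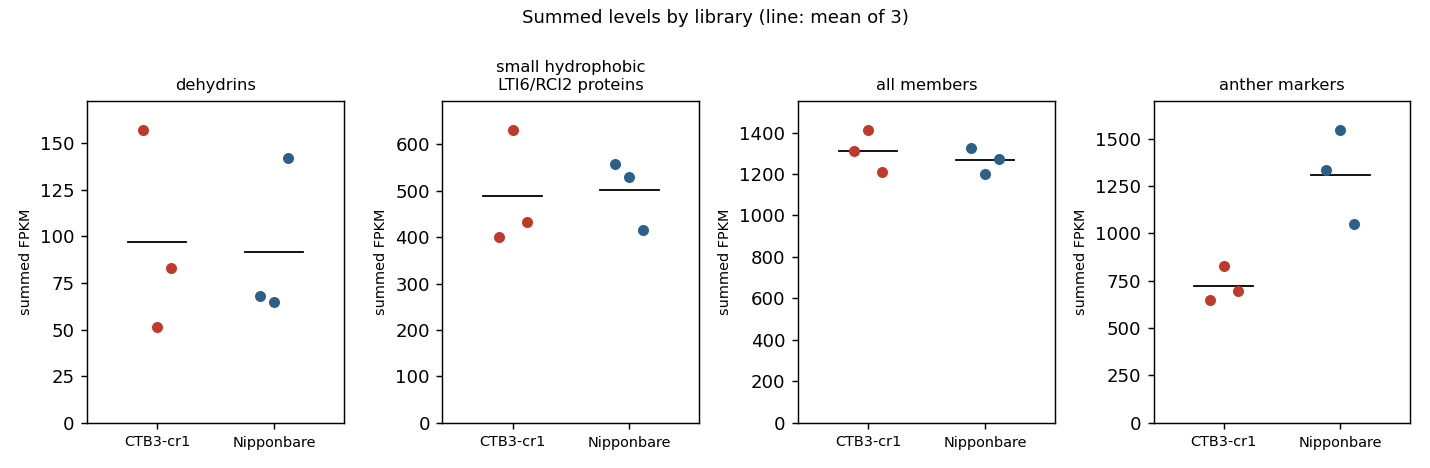
Summed FPKM per library of the dehydrins, of the LTI6 (RCI2) proteins, of all 57 members and of the 8 anther markers, with CTB3-cr1 left and Nipponbare right in each panel, 1 point per library and a line at the mean of 3. The points of the genotypes overlap in the first 3 panels, and all CTB3-cr1 points lie below all Nipponbare points for the anther markers.

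Summed over all 57 members, the level was 1313, 1413 and 1210 FPKM in CTB3-cr1 and 1324, 1202 and 1274 FPKM in Nipponbare. The dehydrins summed to 157, 51.3 and 83.2 FPKM in CTB3-cr1 and 68.0, 65.0 and 142 FPKM in Nipponbare, and the LTI6 proteins to 401, 631 and 432 FPKM in CTB3-cr1 and 558, 530 and 415 FPKM in Nipponbare. The total was thus nearly even across libraries while its make-up was not: CTB3-cr1 replicate 1 and Nipponbare replicate 3 held the most dehydrin transcript, and the same 2 libraries held the least LTI6 transcript. The LTI6 sum followed LTI6a and not the whole family. LTI6b was highest in Nipponbare replicate 3 (73.1 FPKM) and RCI2-8 in CTB3-cr1 replicate 1 (29.9 FPKM), while RCI2-11 and RCI2-3 were lowest in Nipponbare replicate 3. LEA genes of no named type (other LEA) summed to 133.6, 118.1 and 127.6 FPKM in CTB3-cr1 and 108.0, 87.7 and 84.9 FPKM in Nipponbare, without overlap. Os03g0655400 was the most abundant of them. The sums of every other type overlapped between genotypes, and the sums were not tested. Members took 0.120% to 0.140% of the counts of a CTB3-cr1 library and 0.111% to 0.139% of those of a Nipponbare library.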

How the data were processed

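Per the labels' protocols, panicle RNA libraries were made with a NEBNext Ultra kit and sequenced on a NovaSeq instrument. The submitters' processing notes name fastp 0.19.7, HISAT2 and DESeq2. Not given in the sources used here were genome build, annotation, counter and strand setting. The deposited table holds raw counts and FPKM per gene for 6 libraries, and the authors' group means as normalised signal, log2 fold changes and p-values, per the file headers. Of 39369 lines, 2 had no gene identifier (at most 0.000478% of a library's counts) and were left out. Counts were tested with edgeR 4.0.16 (R 4.3.3): filterByExpr, TMM factors, quasi-likelihood F test on genotype, Benjamini-Hochberg adjustment over 25636 genes, threshold 0.05. Standard errors are the log2 fold change over the square root of F, and 95% intervals use them with the fit's degrees of freedom; both are approximate. A count of 0 was read against a floor of 3 counts, which covers counting error only. The script was tested on simulated counts. P-values weigh the difference between genotypes against the spread between these libraries, which edgeR estimates with information from all genes.

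Members and lists were chosen with earlier results of these data known. Named by rule were members called in either table (there were 0), the 12 most abundant, the 8 with the largest fold change, those with an unadjusted p under 0.05, the most abundant of each word class and the 4 with most counts below the filter, 23 in all. Other members, the neighbouring RAB16 gene, the solute genes and anther markers named and the protein types by which the text is ordered were chosen after values were seen. Regulators were listed by identifier, and the solute list by words. Alternatives were DESeq2 1.42.0, RLE factors, the newer quasi-likelihood method, no filter, 5 CPM in 3 libraries, a replicate block, each library left out, and limma 3.58.1 on log2(FPKM + 1) or log2(FPKM + 0.1) with FPKM above 1 in 3 libraries or no filter.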

Additional observations from a re-analysis of the deposited data

How the results depend on the processing

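No member was called in any of the 15 alternatives, where the lowest adjusted p of any member was 0.240 (Os03g0655400 without Nipponbare replicate 1). The number of all genes called was 20, and it was 202 in DESeq2, 4 with the replicate block, and 4 to 16 without single libraries. It was 6, 4 and 5 without CTB3-cr1 replicates 1, 2 and 3 and 6, 7 and 16 without Nipponbare replicates 1, 2 and 3. The labels do not say whether replicate numbers pair libraries across genotypes. Deviations from the genotype means correlated at -0.274, 0.367 and -0.0708 for replicates 1, 2 and 3. Libraries of unlike number were not compared in this way, so these values cannot decide whether the libraries are paired. The median log2 fold change of members, 0.07, was -0.0015 on log2(FPKM + 1) with no filter, over 53 members, and ran from -0.062 to 0.076 without single libraries, being negative without CTB3-cr1 replicate 1, CTB3-cr1 replicate 2 and Nipponbare replicate 3. Of 484 recomputed log2 fold changes of tested members, 445 kept their direction and 39, in 17 members, changed sign. Os03g0843300 turned to -0.0003 at 5 CPM in 3 libraries, -0.0062 with the replicate block, -0.0015 on log2(FPKM + 1) with and without the filter and -0.0017 on log2(FPKM + 0.1), and Os04g0610600 to -0.21 with the replicate block and -0.0055 on log2(FPKM + 1) with no filter. Without single libraries, log2 fold changes that changed sign ran from -0.38 to 0.17 for Os07g0635900, -0.18 to 0.13 for Os05g0129300, -0.0082 to 0.20 for Os03g0767800, -0.0041 to 0.18 for Os09g0558100, -0.45 to 0.63 for Os02g0669100, -0.19 to 0.14 for Os03g0843300, -0.13 to 0.53 for Os03g0159600, -0.27 to 0.26 for Os05g0566800, -0.11 to 0.20 for Os04g0589800, -0.22 to 0.066 for Os03g0370600, -0.10 to 0.29 for Os08g0163600, -0.21 to 0.34 for Os01g0624400, -0.95 to 0.014 for Os01g0702500, -0.23 to 0.27 for Os05g0542500, -0.21 to 0.49 for Os03g0400700, -1.32 to 0.80 for Os04g0610600, -0.34 to 0.42 for Os03g0168100, -0.038 to 0.090 for Os08g0472000, -0.091 to 0.029 for Os01g0165000, -1.30 to 0.43 for Os01g0848200, -0.083 to 0.38 for Os11g0167800 and -0.17 to 0.20 for Os01g0917500. The causes were not tested. Of the 23 members below the filter, 19 were fitted with no filter and 0 were called; on log2(FPKM + 1) with no filter 3 of them had an unadjusted p under 0.05, and in edgeR with no filter and DESeq2 0 had.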
